A study of Mus musculus with 3 samples.

Results

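The Notch pathway genes described here are 3 receptors (Notch1, Notch2 and Notch3), 3 ligands (Dll1, Dll3 and Jag1) and 4 target genes (Hes1, Hes5, Hey1 and Hey2). Their probe sets, the groups of probes that report 1 transcript on the array, were taken where the platform's table gave that symbol and no other. This gave 12 probe sets for the 10 genes, out of 22180 genes with a probe set of their own. RNA came from wild-type CD-1 mouse cells of the medial ganglionic eminence (MGE), the ventral forebrain region that produces cortical interneurons, dissected at embryonic day 13. The 3 biological replicate cultures form 1 group, grown with FGF2 at 40 ng/ml, given the antimitotic drug AraC at 1 µM for 24 h from day 5, and kept 2 more days after it was washed out. No other condition belongs to the series, and the labels do not say whether the cultures came from separate litters, so the spread given is that between these cultures.

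Notch receptors are membrane proteins that are cut when a Delta or Jagged ligand on a neighbouring cell binds them. The released intracellular part joins the DNA-binding protein RBPJ in the nucleus and switches on Hes and Hey genes, which encode repressors of proneural transcription factors. In the embryonic forebrain this is known to hold radial glia in the progenitor state while the neighbours that carry ligand become neurons, and in later stages it is also used by glial lineages.

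RBPJ binds short sites that share the letters TGGGAA, and Hes5 and Hey2 are shown because their promoter windows held that motif. The windows are the 250 bases before an annotated transcript start in RefSeq (GRCm38.p6), written 5′ to 3′ on the gene's strand, with TGGGAA or its reverse complement in capitals. The Hes5 window is chr4:154960673-154960922 on the plus strand, and the Hey2 window is chr10:30842784-30843033 on the minus strand.
Hes5: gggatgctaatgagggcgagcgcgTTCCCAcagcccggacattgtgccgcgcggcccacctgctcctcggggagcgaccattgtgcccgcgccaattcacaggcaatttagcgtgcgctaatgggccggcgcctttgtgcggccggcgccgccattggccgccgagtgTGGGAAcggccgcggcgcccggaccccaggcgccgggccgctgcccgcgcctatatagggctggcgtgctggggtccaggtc
Hey2: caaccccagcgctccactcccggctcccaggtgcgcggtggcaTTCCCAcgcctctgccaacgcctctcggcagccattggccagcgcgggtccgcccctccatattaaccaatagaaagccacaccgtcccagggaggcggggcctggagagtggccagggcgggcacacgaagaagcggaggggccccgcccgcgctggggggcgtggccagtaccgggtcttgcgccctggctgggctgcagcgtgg
Hes5 held the motif at 226 to 221 bases before the start on the opposite strand and at 82 to 77 bases on the gene's strand, and Hey2 held it at 207 to 202 bases on the opposite strand. All 3 matches were also matches to the longer GTGGGAA, which contains TGGGAA. Windows were found for 8 of the 10 genes, 9 windows in all, without Hes1 and Hey1. Of 32851 windows of the same length in the table, 21.6% held TGGGAA on either strand and 5.42% held GTGGGAA. Among the 9 windows 2 held TGGGAA, those of Hes5 and Hey2, which is close to the share of all windows. The same 2 held GTGGGAA, and whether that count differs from its share was not tested. Binding sites of the Hes and Hey proteins themselves were searched as CACGCG (7.62% of all windows), CACNAG (36.7%) and CACGTG (6.02%), on both strands. CACGCG was found in the windows of Notch2, Dll1 and Jag1, CACNAG in those of Notch1, Notch2 and Notch3, and CACGTG in none of the 9. A match is a description of these letters and not a measured site.

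All 10 genes gave signal above background. Values are log2 units, so 1 unit is a doubling of signal, and background was set at 6.26, the 95th percentile of the mean signal of 1435 probe sets of chemosensory receptor genes (olfactory, vomeronasal, bitter taste). Over all 20755 genes tested 63.4% were above it (limma, adjusted p under 0.05), so a count of 10 of 10 is read against that share. With a margin of 1 log2 unit added to the line, 10 of 10 were again above it, against 47.6% of all genes. The means lay 1.61 to 3.78 log2 units over the line. Probe sets bind their targets with different strength, so the level of 1 gene is not set against that of another.

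**Figure D1:**
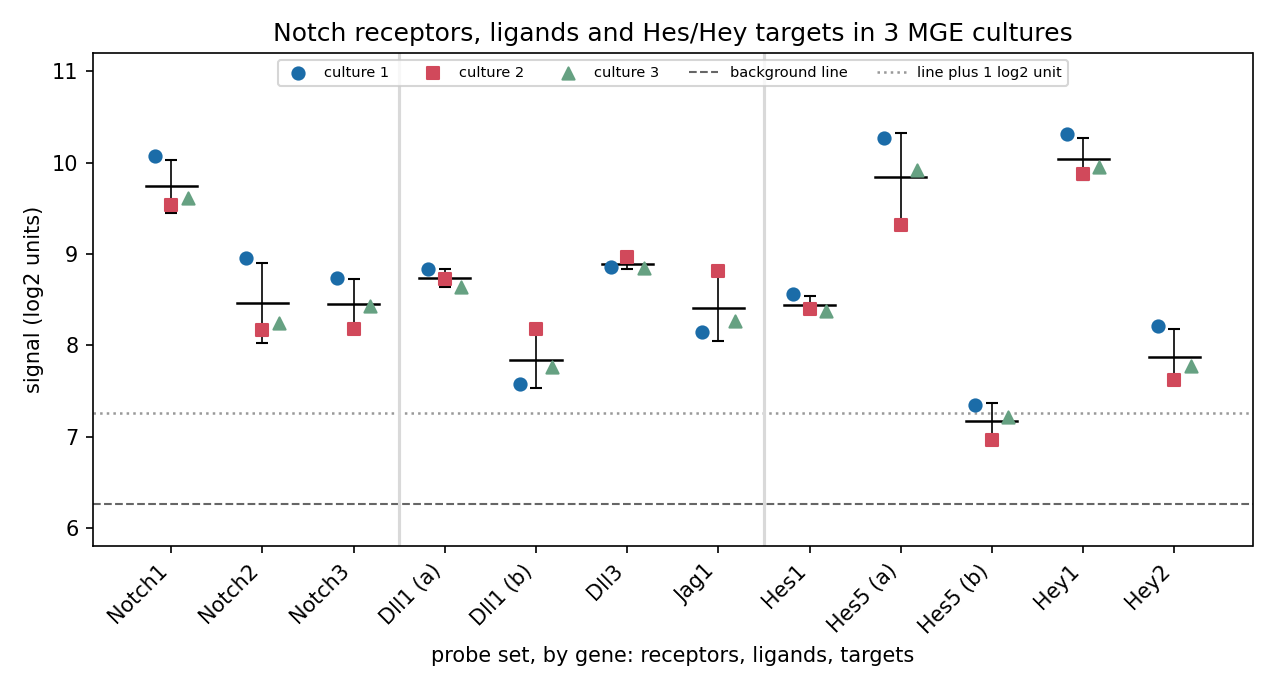
Signal of the 12 probe sets (log2 units, vertical axis) in cultures 1, 2 and 3 (circles, squares and triangles), with the mean as a bar and the SD as whiskers (n = 3). The dashed line is the background line at 6.26 and the dotted line lies 1 unit higher, at 7.26; (a) and (b) are the brighter and the dimmer probe set of a gene. Only the dimmer Hes5 probe set has its mean under the dotted line, and receptors and targets are highest in culture 1.

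The 3 receptors were each highest in culture 1 and lowest in culture 2. Notch1, the receptor best known from neural progenitors, had signals of 10.07, 9.54 and 9.61 in cultures 1, 2 and 3, with a mean of 9.74 ± 0.29 (SD, n = 3; limma, adjusted p = 1.16e-05 for signal above background). Notch2, a paralogue also used in glia and progenitors, had signals of 8.96, 8.17 and 8.24, with a mean of 8.46 ± 0.44 (adjusted p = 0.000235). Notch3, known in the nervous system both from progenitors and from the mural cells of vessels, had signals of 8.74, 8.18 and 8.43, with a mean of 8.45 ± 0.28 (adjusted p = 5.27e-05). Cultures 2 and 3 lay close together for Notch1 and Notch2, 0.07 and 0.08 log2 units apart, while culture 1 exceeded culture 2 by 0.53 and 0.80. In linear terms culture 1 gave 1.44 times the signal of culture 2 for Notch1, 1.74 times for Notch2 and 1.47 times for Notch3.

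The ligands did not share that order. Jag1, a Jagged ligand, had signals of 8.14, 8.81 and 8.27 in cultures 1, 2 and 3, with a mean of 8.41 ± 0.36 (limma, adjusted p = 0.000128). It was thus highest in culture 2, at 1.6 times the signal of culture 1, and lowest in culture 1. Dll3, a divergent Delta protein that is known to act inside the cell that makes it, was nearly level, at 8.86, 8.97 and 8.85, with a mean of 8.89 ± 0.06 (adjusted p = 2.41e-06).

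Dll1, the Delta ligand of newborn neurons and committed progenitors, has 2 probe sets, and they disagreed over the cultures. The brighter one (17341179) gave 8.84, 8.73 and 8.64, with a mean of 8.74 ± 0.10 (limma, adjusted p = 3.9e-06), and was highest in culture 1. The dimmer one (17333549) gave 7.58, 8.18 and 7.76, with a mean of 7.84 ± 0.31 (adjusted p = 0.000248), and was highest in culture 2, as Jag1 was. Both were above background, but which culture had the most Dll1 signal depends on the probe set, and with the mean of both it was culture 2 (8.21, 8.46 and 8.20).

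The 4 target genes were each highest in culture 1, and the size of the difference varied among them. Hes5, the Hes repressor most closely tied to Notch activity in neural progenitors, had signals of 10.27, 9.32 and 9.92, with a mean of 9.84 ± 0.48 (limma, adjusted p = 5.19e-05). On this brighter probe set culture 1 thus gave 1.93 times the signal of culture 2, the widest ratio of the 10 genes, and culture 3 lay in between. With the mean of both Hes5 probe sets the signals were 8.81, 8.14 and 8.57. The difference between cultures 1 and 2 was then smaller than that of Notch2 (0.80 log2 units), so the ranking rests on 1 probe set. The second, dimmer Hes5 probe set (17433696) kept the same order at 7.35, 6.96 and 7.21, with culture 1 only 0.40 log2 units over culture 2. Its mean of 7.17 ± 0.20 passed the background line (limma, adjusted p = 0.000528) but not the line with a margin of 1 (adjusted p = 1).

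Hes1, a repressor that Notch and other signals both drive, varied little. It had signals of 8.56, 8.40 and 8.37, with a mean of 8.44 ± 0.10 (limma, adjusted p = 6.01e-06). Its lowest culture was culture 3 in the deposited values and culture 2 after quantile normalization of the arrays (8.36 against 8.40), so the order of these 2 cultures is not settled.

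The Hey genes encode repressors related to Hes proteins, with a different residue in their basic region. Hey1 had signals of 10.31, 9.87 and 9.95, with a mean of 10.04 ± 0.23 (limma, adjusted p = 5.17e-06). Hey2 had signals of 8.21, 7.62 and 7.77, with a mean of 7.87 ± 0.31 (adjusted p = 0.000224). In both, cultures 2 and 3 lay together and culture 1 stood higher, by 0.44 and 0.59 log2 units over culture 2.

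By role, 7 of 7 receptors and targets were highest in culture 1 and 6 of the 7 were lowest in culture 2 (24.8% of all genes above background were), with Hes1 the exception. Of the 3 ligands, Jag1 and Dll3 were highest in culture 2. Over the 10 genes, with the brighter probe set of each, 8 were highest in culture 1, against 32.4% of all 13152 genes above background. All genes leaned the other way, since 52.1% of them were highest in culture 2 and 43.8% lowest in culture 1. Each culture is 1 array, so no test of a difference between cultures can be made. The count in culture 1 was 8 after quantile normalization and after median centring of the arrays, and 7 with the mean of the probe sets of a gene.

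The spread of these genes was smallest when culture 1 was left out. Their median SD over the 3 cultures was 0.28 log2 units, against 0.12 for all genes above background, and 7 of the 10 had an SD above that median. These values use the brighter probe set of Hes5 and of Dll1. Hes5, Notch2 and Jag1 had the widest spread, and 98.2%, 97.5% and 95.1% of all genes above background had an SD no larger than theirs. Dll3, Dll1 and Hes1 were the steadiest, at 20.9%, 39.2% and 42.5% by the same measure. For Dll1 this rests on the probe set. Among all probe sets above background, 92.5% had an SD no larger than that of its dimmer one (0.31). For the dimmer Hes5 probe set it was 77.8%. Without culture 1 the median SD of the 10 genes fell to 0.071 (0.089 for all genes), whereas it was 0.23 without culture 2 and 0.38 without culture 3 (0.083 and 0.12 for all genes).

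**Figure D2:**
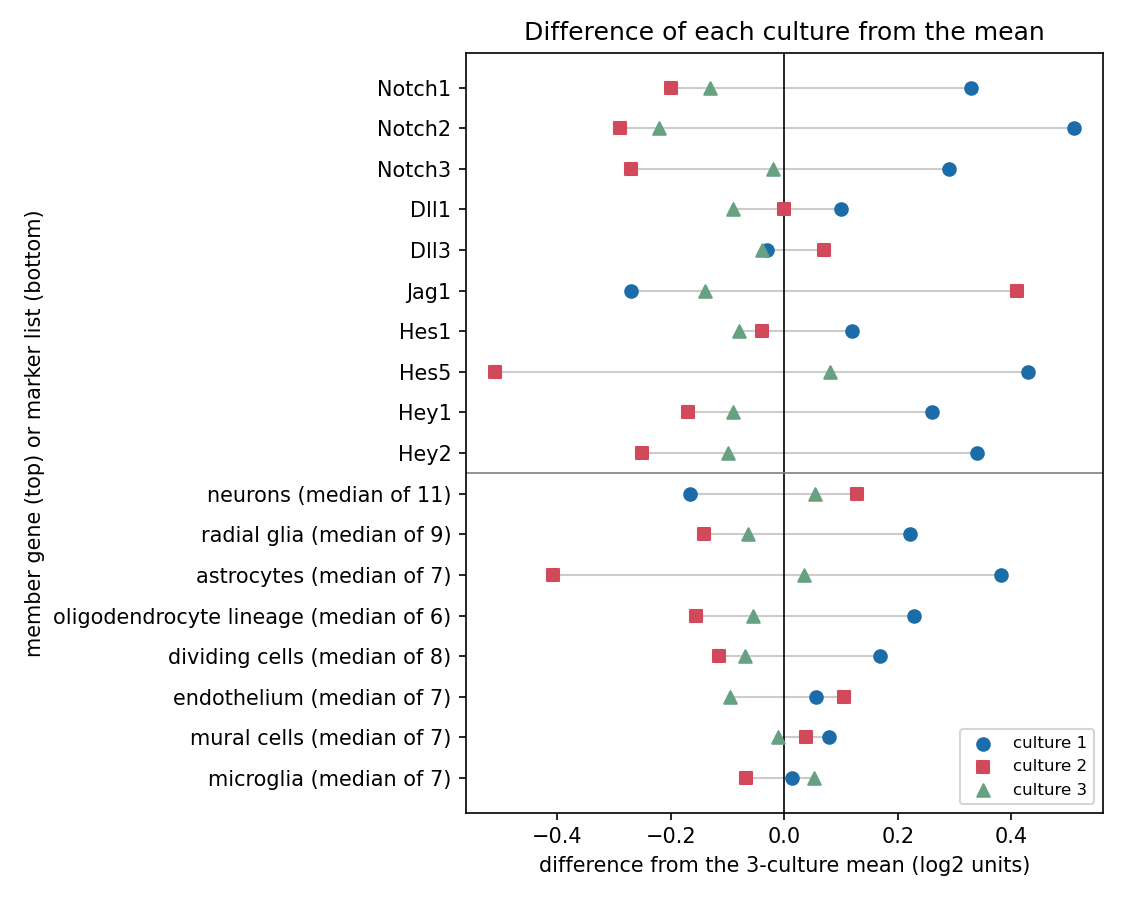
Difference of each culture from the 3-culture mean (log2 units, horizontal axis) for the 10 genes, with the brighter probe set of Dll1 and Hes5, and below them the median difference over each marker list; circles, squares and triangles are cultures 1, 2 and 3. For the receptors and for Hes5, Hey1 and Hey2 the circle lies at 0.26 to 0.51 and the square lies below 0. These are the same sides as for the lists of radial glia, astrocytes, the oligodendrocyte lineage and dividing cells. The neuron list, Jag1 and, by only -0.03, Dll3 have the circle below 0.

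Markers of several cell types were, like the receptors and targets, mostly highest in culture 1, where 32.4% of all genes above background were highest. Radial glia are the stem cells of the embryonic forebrain, and 9 of their 9 markers, with Nes and Vim, were highest in culture 1. Of those above background it was 8 of 8. The mean signal of that list was 10.24, 9.89 and 9.99 in cultures 1, 2 and 3. For astrocytes 7 of 7 markers were highest in culture 1 (means 8.55, 7.73 and 8.25), and 5 of 5 of those above background. For the oligodendrocyte lineage it was 5 of 6 (8.91, 8.43 and 8.52), and for dividing cells 7 of 8 (9.73, 9.46 and 9.50), all of them above background. Aqp4, the astrocytic water channel, had signals of 8.74, 7.53 and 8.34, and Mki67, a protein of cycling nuclei, had 10.24, 9.86 and 10.01. Of 11 neuronal markers, 9 were lowest in culture 1 (10.72, 11.06 and 10.98), where 43.8% of all genes above background were lowest.

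In RNA from a whole culture, fewer cells of a type and less RNA per cell cannot be told apart, and the part of these markers in the order of the Notch genes was not tested. The cultures were labelled as purified interneurons, and all 11 neuronal markers were above background, among them Tubb3, a neuronal tubulin (11.79 ± 0.16), and Dcx, a microtubule protein of young neurons (11.64 ± 0.02). So were 8 of 9 markers of radial glia (all but Hopx), 5 of 7 of astrocytes (all but S100b and Gjb6), 6 of 6 of the oligodendrocyte lineage and 8 of 8 of dividing cells. Of all genes 63.4% were above background, so the astrocyte count is close to that share. With a margin of 1 (47.6% of all genes) the counts were 11 of 11 for neurons, 6 of 9 for radial glia and 4 of 7 for astrocytes. They were 5 of 6 for the oligodendrocyte lineage and 7 of 8 for dividing cells. Of the radial glia markers Prom1, Hopx and Pax6 did not pass with the margin. Endothelial and mural cells also use Notch signals. For these, 5 of 7 markers of each were above background and 0 and 2 with a margin of 1, for microglia 3 of 7 and 0. The counts of 5 of 7 are close to the 63.4% of all genes, and the counts with a margin stand beside 47.6%. The median differences from the mean in cultures 1, 2 and 3 were 0.06, 0.11 and -0.10 log2 units for the endothelial list. They were 0.08, 0.04 and -0.01 for the mural list and 0.01, -0.07 and 0.05 for the microglial list. The part of these 3 lists in the order of the Notch genes was not tested either. Cspg4 is in both the oligodendrocyte and the mural list. Of the endothelial markers Pecam1, Cdh5, Kdr, Cldn5 and Flt1 were above background and Tek and Esam were not. Of the mural markers Pdgfrb, Rgs5, Acta2, Cspg4 and Col1a1 were and Des and Kcnj8 were not, with Acta2 (9.39 ± 0.88) and Cspg4 also over the margin. Of the microglial markers Cx3cr1, Aif1 and P2ry12 were and Csf1r, Itgam, Tmem119 and Ptprc were not. The 3 arrays were alike across all probe sets, with r of 0.983 to 0.991 across genes, which are not independent replicates.

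Of 74 other genes of the pathway that were listed, 69 were measured and 63 were above background, 53 of them with a margin of 1. The shares of all genes, 63.4% and 47.6%, apply to each list below as well. Of the 63, 33 (52.4%) were highest in culture 1, 26 in culture 2 and 4 in culture 3, beside 32.4%, 52.1% and 15.5% of all genes above background. Whether they differ from the 10 in this was not tested.

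**Figure D3:**
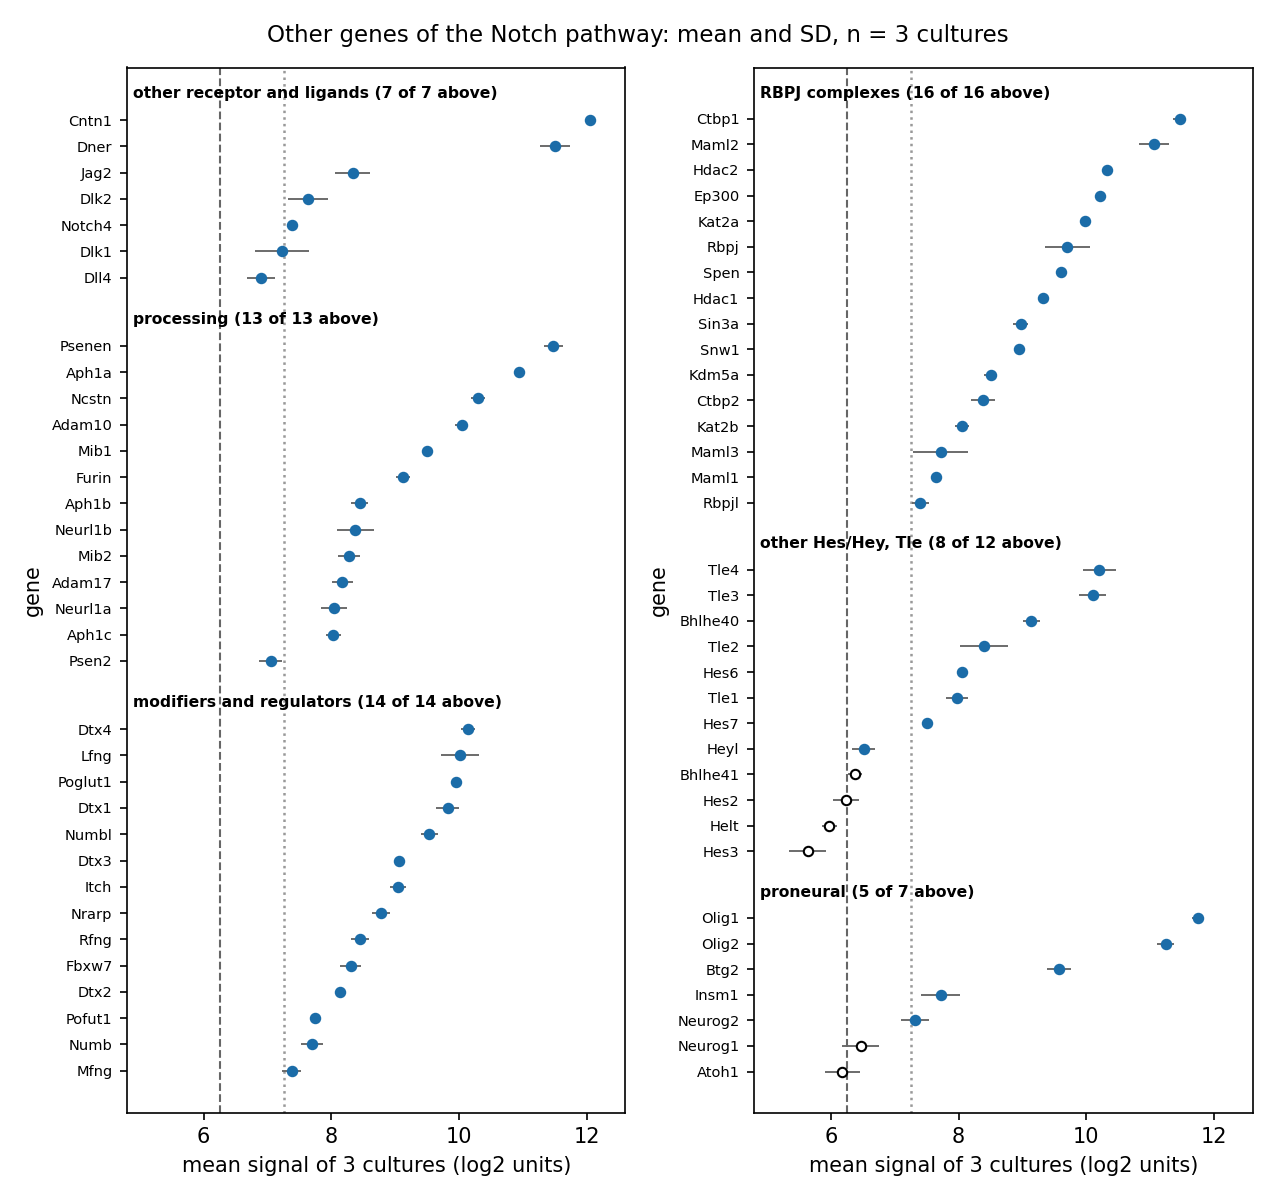
Mean signal over 3 cultures (log2 units, horizontal axis) of the 69 other pathway genes in 6 lists, with the SD as bars (n = 3). Filled circles were above background and open circles were not, the dashed line is at 6.26 and the dotted line at 7.26. Open circles occur in 2 lists, the proneural list and that of the other Hes and Hey genes, which also holds Helt, Bhlhe40, Bhlhe41 and the Tle genes.

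Among the other receptor and ligand genes 7 of 7 were above background, but only 3 with a margin of 1. Notch4, the receptor of endothelium, had signals of 7.46, 7.30 and 7.41 (7.39 ± 0.08; limma, adjusted p = 4.03e-05), and Dll4, a ligand best known from vessels, had 6.96, 7.09 and 6.66 (6.90 ± 0.22; adjusted p = 0.00239). Neither passed with the margin. Jag2, the second Jagged ligand, had signals of 8.08, 8.63 and 8.30 (8.33 ± 0.28), with the same order of cultures as Jag1. Dlk1, a Delta-like protein without the domain that activates Notch, went the other way at 7.54, 6.76 and 7.39 (7.23 ± 0.42), and its relative Dlk2 had 7.30, 7.93 and 7.66 (7.63 ± 0.31).

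The machinery that sends, cuts and modifies the receptor was above background throughout the lists measured, 13 of 13 for processing and 14 of 14 for modifiers and regulators (12 and 13 with a margin of 1). Adam10, the protease that makes the first cut after ligand binding, had signals of 10.15 in culture 1 and 9.97 in culture 2, with culture 3 in between (10.04 ± 0.10). Mib1, the ubiquitin ligase that lets ligand be endocytosed in the sending cell, was almost identical in the 3 cultures at 9.51, 9.51 and 9.49 (9.50 ± 0.01). Lfng, the Fringe sugar transferase that tunes which ligand a receptor answers, had 10.36, 9.78 and 9.90 (10.01 ± 0.30), in the order of Notch1. Numb, an inhibitor of Notch in one daughter of a division, had 7.85, 7.70 and 7.52 (7.69 ± 0.17), and Nrarp, a target gene that feeds back on the intracellular part of Notch, had 8.94, 8.72 and 8.68 (8.78 ± 0.14).

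In the nucleus, 16 of 16 genes of the RBPJ complexes were above background, 14 with a margin of 1. Rbpj, the DNA-binding protein on which all 4 receptors converge, had 10.11, 9.53 and 9.48 (9.70 ± 0.35; limma, adjusted p = 2.21e-05) on its brighter probe set, 0.58 log2 units higher in culture 1 than in culture 2. Its other probe set was not above background (6.05 ± 0.24; adjusted p = 1) and was lowest in culture 1, so the order rests on 1 probe set. The coactivators Maml1 and Maml3 differed in spread. Maml1 had 7.65, 7.72 and 7.59 (7.65 ± 0.06), whereas Maml3 had 7.27, 8.12 and 7.76 (7.72 ± 0.43), the largest SD of the 63 genes.

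The next list holds the other Hes and Hey genes, Helt, Bhlhe40, Bhlhe41, and the Groucho corepressors of the Tle family that Hes and Hey proteins recruit. Of this list 8 of 12 were above background, close to the 63.4% of all genes. They were Hes6, Hes7, Heyl, Bhlhe40, Tle1, Tle2, Tle3 and Tle4, so the count is not one of Hes and Hey genes alone. Hes6, a Hes protein that opposes Hes1, had 8.13, 8.03 and 8.0 (8.05 ± 0.07). Heyl, the third Hey gene, was just over the line at 6.64, 6.32 and 6.61 (6.52 ± 0.18; limma, adjusted p = 0.0295), and did not pass without culture 1 (adjusted p = 0.101) or without culture 3 (adjusted p = 0.143). Hes2 (6.24 ± 0.20), Hes3 (5.64 ± 0.29), Helt (5.98 ± 0.12) and Bhlhe41 (6.38 ± 0.11) did not pass. Tle4 had 10.50, 10.03 and 10.06 (10.20 ± 0.26), while Tle2 had 7.98, 8.71 and 8.51 (8.40 ± 0.38), the one lowest and the other highest in culture 2.

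The proneural list holds Neurog1, Neurog2 and Atoh1, of the class that Hes and Hey repressors are known to hold down. It also holds Olig1, Olig2, Insm1 and Btg2, so its counts are not counts of proneural factors alone. Of this list 5 of 7 were above background (63.4% of all genes) and 4 with a margin of 1 (47.6%). The 4 were Olig1, Olig2, Insm1 and Btg2, of which Olig1 and Olig2 also serve the oligodendrocyte lineage. Neurog2 did not pass with the margin. Neurog2, a proneural factor of the dorsal forebrain, had 7.55, 7.12 and 7.31 (7.32 ± 0.22; limma, adjusted p = 0.000361). Neurog1 (6.47 ± 0.29; adjusted p = 0.14) and Atoh1 (6.18 ± 0.27; adjusted p = 1), factors mainly of other neural territories, did not pass. Of the 5 genes of this list above background, Neurog2 among them, 4 were highest in culture 1 and 4 lowest in culture 2. Of all genes above background 32.4% and 24.8% were.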

How the data were processed

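Total RNA (100 ng per culture) was labelled with biotin and hybridized to 1-colour Affymetrix arrays, 1 per culture. The deposited values are log2 signals per probe set, made by the authors with oligo and RMA per the submitters' processing notes, which corrects background, normalizes and summarizes probes; the sources used here give no version, setting or filter. Arrays give no read depth, and their number limits the precision. Genes were named from the platform's probe table; of 41345 probe sets 23521 carry 1 symbol, 1814 several and 16010 none. All 10 members matched RefSeq by gene identifier.

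limma 3.58.1 (R 4.3.3) tested, 1-sided, whether each mean exceeded the background line, on 22086 probe sets outside the receptor families that set it, with Benjamini-Hochberg adjustment over all of them. A gene counted as above background when at least 1 of its probe sets passed, and its brighter probe set is printed. The call was tested on simulated data, and 13 alternatives were run. The members and lists were chosen with earlier results of these data known. Named beside the members were fixed lead genes of the 6 pathway lists, all their genes not above background, and the 5 above it with the largest SD. The other measured genes of the proneural list and of the list of other Hes, Hey and Tle genes are named as well. Of the marker lists, some of the first 2 genes were named and, chosen after their values were seen, other markers. Of the listed genes 5 are not analysed here.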

Additional observations from a re-analysis of the deposited data

How the results depend on the processing

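The 10 genes were all above background under each of the 13 alternatives: 10 of 10 at the 99th and the 90th percentile, with keratin-associated, cornified envelope and defensin genes as background (7.26), with a margin of 1, with every culture over the line and no test, with an intensity trend, after quantile normalization or median centring, with the mean of the probe sets, without dim probe sets, and without each culture in turn. The share of all genes above background ran from 47.6% with a margin of 1 to 72.5% at the 90th percentile, and was 91% without dim probe sets, where a count of 10 says little. The highest adjusted p by limma was 0.0107, for Hey2 with a margin of 1. Of the other pathway genes 53 to 67 were above background. The median SD of the 10 genes ran from 0.071 to 0.38 with 1 culture left out, the lowest without culture 1. With the mean of both Dll1 probe sets, 3 genes were highest in culture 2. No paired analysis was possible because the 3 cultures form 1 group. With 3 arrays and 1 group, differences between cultures carry no test.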
